A study of Mus musculus with 15 samples.

Results

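The miRNAs described here come from the first stretch of the imprinted Dlk1-Dio3 region of mouse chromosome 12, which holds the genes Meg3 and Rtl1. They were chosen by assay name, as miR-127, miR-136, miR-337, miR-431, miR-433, miR-434, miR-540, miR-665, miR-673 and miR-770 with any arm, and 20 of the 584 miRNA assays of the arrays met this rule. Among them are mmu-miR-127, mmu-miR-136, mmu-miR-337-5p, mmu-miR-431 and mmu-miR-434-3p. Of these, 2 are assays for the rat miRNA, written rno-miR-136* and rno-miR-673. Names are given without the species prefix mmu- hereafter, and an asterisk marks, in the older naming, the opposite arm of the same hairpin.

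Levels were measured by TaqMan quantitative PCR on low density array cards in 2 mouse cell lines, αTC1-6, a glucagon-producing pancreatic alpha cell tumour line, and βTC1, an insulin-producing beta cell tumour line. Untreated αTC1-6 cells and αTC1-6 cells given a mixture of IL1b at 50 IU/ml, IFNg at 1000 IU/ml and TNFa at 1000 IU/ml were collected at 24 h and at 48 h, and untreated βTC1 cells at 24 h, with 3 biological replicates in each of the 5 groups. All groups are passaged tumour-derived lines, each line standing for its cell type alone, and no cytokine-treated βTC1 samples were analysed here. Steady state denotes the untreated αTC1-6 and βTC1 cells of 24 h.

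In the Dlk1-Dio3 region the protein genes Dlk1, Rtl1 and Dio3 are expressed from the paternal chromosome, and the long non-coding RNAs Meg3, Rian and Mirg from the maternal one. Maternally expressed miRNA hairpins lie within these non-coding RNAs and in the anti-Rtl1 transcript, which runs opposite to Rtl1. Because they are fully complementary to the Rtl1 transcript, miR-431, miR-433, miR-127, miR-434 and miR-136 can direct its cleavage, and Meg3 RNA is known from islets and neuroendocrine tissue.

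On RefSeq mouse assembly GRCm38.p6 the 10 hairpins lie on the plus strand of chromosome 12 within 31.7 kb. Mir770 is within Meg3 (chr12:109540996-109571729), and the other 9 lie within the annotated span of Rtl1 (chr12:109564900-109604418). Mir337, Mir540 and Mir665 occupy 0.619 kb, and the 5 hairpins from Mir431 to Mir136 occupy 4.94 kb. Mature sequences from RefSeq were matched to 18 of the 20 assays, all but the 2 rat assays. They are 20 to 23 bases long and carry 18 different seeds, so no seed is shared among the matched members. In 16 of the 18 the seed was in no other of the 1679 mature mouse miRNAs of the table. The seed of miR-673-5p is also that of miR-6985-3p, and the seed of miR-540-3p that of miR-6915-5p.

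The sequences below are those of the members on which the steady-state and cytokine comparisons turn, 5′ to 3′ in order along the chromosome, with bases 2 to 8, the seed, in capitals. The assays named miR-431, miR-433, miR-127 and miR-136 correspond to RefSeq's miR-431-5p, miR-433-3p, miR-127-3p and miR-136-5p.
miR-673-3p: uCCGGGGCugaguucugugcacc
miR-337-5p: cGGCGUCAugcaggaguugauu
miR-337-3p: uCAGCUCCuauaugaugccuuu
miR-540-5p: cAAGGGUCacccucugacucugu
miR-540-3p: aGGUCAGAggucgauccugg
miR-431: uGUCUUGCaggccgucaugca
miR-433: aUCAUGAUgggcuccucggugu
miR-127: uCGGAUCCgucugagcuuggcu
miR-434-5p: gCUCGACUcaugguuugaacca
miR-434-3p: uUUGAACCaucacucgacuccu
miR-136: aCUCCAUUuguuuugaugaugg
The hairpin of miR-431 is at chr12:109590447-109590537, that of miR-127 at chr12:109592846-109592915 and that of miR-136 at chr12:109595327-109595388.

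Values are ΔCt, the PCR cycle at which an assay crossed its threshold minus that of miR-26a in the same sample, so that a lower ΔCt is a higher level and 1 unit is 1 doubling. A log2 difference is the ΔCt of the second group minus that of the first, positive where the first group has more. A well that never crossed its threshold is undetermined and enters the fits at a Ct of 40. On card A, from 214 to 276 miRNAs had a Ct in each sample of 24 h and at least 304 in each sample of 48 h. In each sample of 24 h, from 59 to 85 card A wells were undetermined in the normalized table but had a Ct in the non-normalized one, against 0 to 1 at 48 h. Values are those of the normalized table unless the other is named, and the reason for the difference is not given in the sources used here. The islet miRNA miR-375 had a ΔCt of -3.17 ± 0.76 (SD, n = 3) in αTC1-6 and of -4.24 ± 0.17 (SD, n = 3) in βTC1 at steady state. For miR-7a, also an islet miRNA, the direction was opposite. Its mean ΔCt was 3.79 ± 1.06 for βTC1 cells, against 2.55 ± 0.67 for untreated αTC1-6 cells of 24 h (SD, n = 3 each). The acinar miRNAs miR-216a, miR-216b and miR-217 had a Ct in 3 of 3 βTC1 samples and in 0 of 3 untreated αTC1-6 samples of 24 h. Their part in the results was not tested.

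Between the lines at steady state, 6 of the 20 assays had a Ct in all 6 samples. Of these, miR-127, miR-136, miR-337-5p and miR-434-3p were higher in αTC1-6 (limma, Benjamini-Hochberg adjusted p under 0.05), against 8.9% of all assays with a Ct in all 6 samples called higher. The other 2, miR-136* and miR-673-5p, were not called. The median log2 difference was 7.61 over the 6 and -0.45 over all such assays. With a Ct required in at least 3 of the 6 samples, 15 of the 20 were tested and miR-337-3p was also higher. MiR-431, miR-433, miR-434-5p and miR-540-5p had no Ct in βTC1 in the normalized table, so that they passed this filter only through αTC1-6 and had to differ; they are described by their values alone. With these 4 the fit called 9 higher and 0 lower, a count that is not used as support, since the 4 had to differ. Over all 480 tested assays 11.9% were called higher and 17.7% lower, shares that also take in assays with no Ct in βTC1 or none in αTC1-6. In these bulk samples fewer cells with a miRNA and less of it per cell cannot be told apart.

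MiR-127, the most studied of the miRNAs complementary to Rtl1, had ΔCt values of 2.68, 3.17 and 3.25 in the 3 untreated αTC1-6 samples of 24 h and of 13.57, 11.71 and 11.59 in the 3 βTC1 samples. All 3 αTC1-6 samples lay above all 3 βTC1 samples in level. The log2 difference was 9.26 ± 0.68 (SE; limma, adjusted p = 0.000111), a 612-fold higher level.

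MiR-434-3p had ΔCt values of 4.76, 4.42 and 5.21 in αTC1-6 and of 12.59, 13.25 and 14.36 in βTC1. The groups did not overlap, and the log2 difference was 8.61 ± 0.61 (SE; limma, adjusted p = 9.80e-05). For miR-136 the αTC1-6 values were 6.99, 7.55 and 7.57 and the βTC1 values 14.62, 12.98 and 15.47, again without overlap. Its log2 difference was 6.98 ± 0.74 (SE; limma, adjusted p = 0.000587).

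The miR-337-5p and miR-337-3p arms, whose hairpin lies upstream of the Rtl1-complementary set, were higher in αTC1-6. MiR-337-5p had ΔCt values of 6.85, 6.42 and 7.29 in αTC1-6 and of 15.60, 15.24 and 14.42 in βTC1. Its log2 difference was 8.24 ± 0.52 (SE; limma, adjusted p = 6.65e-05). MiR-337-3p had 9.84, 9.43 and 9.63 in αTC1-6, and in βTC1 16.65, 14.97 and 1 undetermined sample. With that sample at a Ct of 40 the log2 difference was 8.40 ± 1.96 (SE; limma, adjusted p = 0.0169), and with it as missing 6.18 (limma, adjusted p = 0.00253). Without any 1 of the 3 αTC1-6 samples, the adjusted p of miR-337-3p was between 0.0520 and 0.0537, past the threshold in none of these fits.

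MiR-431 had ΔCt values of 7.02, 6.07 and 5.72 in αTC1-6, and no βTC1 sample had a Ct in either table. MiR-540-5p likewise had no Ct in βTC1 in either table, and had ΔCt values of 9.75, 12.26 and 12.31 in αTC1-6. For both, the fitted difference follows from the Ct given to undetermined wells. With a Ct of 40 the log2 difference was 15.51 for miR-431 and 10.34 for miR-540-5p, and with all Ct values above 35 set to 35 it was 10.51 and 5.34.

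For miR-433 and miR-434-5p the values depended on the table used. MiR-433, which like miR-431 is complementary to Rtl1, had ΔCt values of 9.99, 8.47 and 6.81 in αTC1-6 and no Ct in βTC1 in the normalized table, which at a Ct of 40 gave a log2 difference of 13.36. The non-normalized table gave Ct values of 29.6, 21.1 and 29.5 for the same 3 βTC1 samples. Its mean ΔCt in αTC1-6 was 8.42 in the normalized and 7.08 in the non-normalized table, and from the latter the log2 difference of miR-433 was 1.44 ± 2.80 (SE; limma, adjusted p = 0.783). MiR-434-5p had ΔCt values of 7.98, 8.43 and 8.26 in αTC1-6 and no Ct in βTC1 in the normalized table, and its log2 difference at a Ct of 40 was 13.56. Its non-normalized βTC1 Ct values were 27.2, 35.03 and 34.97, with a log2 difference of 5.96 ± 2.39 (SE; limma, adjusted p = 0.159). The calls of miR-127, miR-136, miR-337-3p, miR-337-5p and miR-434-3p were made from both tables. The Ct values of these assays are the same in both, so the non-normalized table is no second measurement of them.

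**Figure D1:**
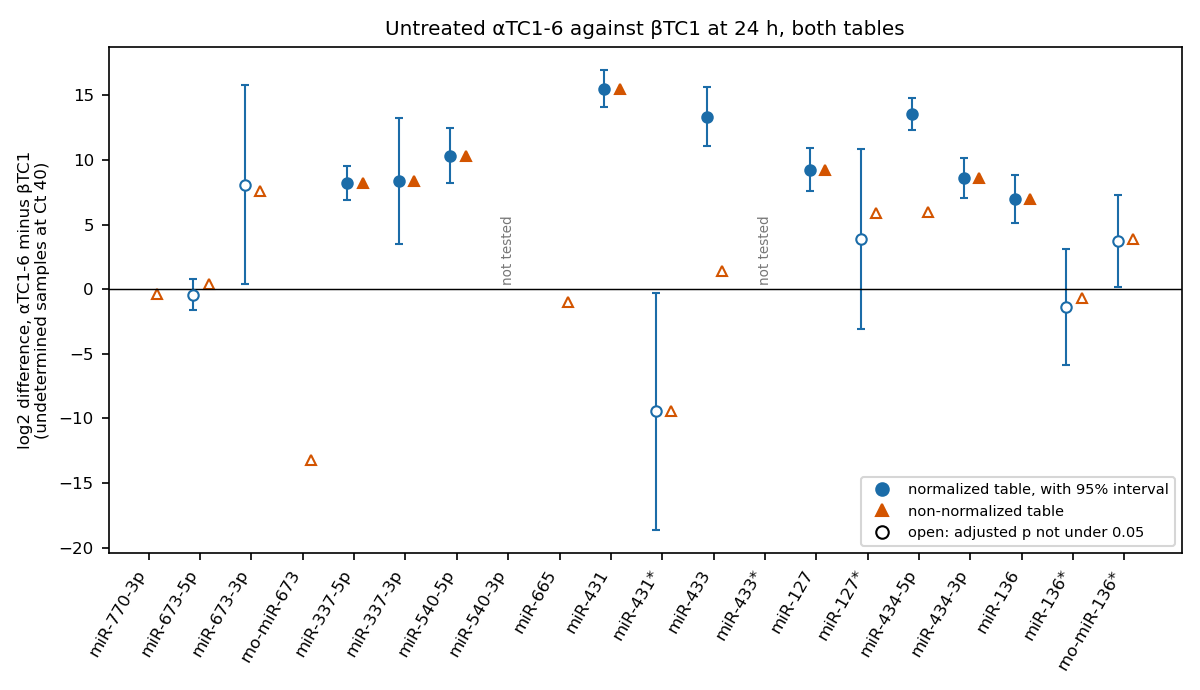
Log2 difference of each assay between untreated αTC1-6 and βTC1 at 24 h (vertical axis, αTC1-6 minus βTC1), in order along the chromosome, from the normalized table (circles, bars are 95% intervals) and the non-normalized table (triangles), filled where the adjusted p is under 0.05. The circles and triangles coincide for miR-127 and miR-431, whose wells hold the same values in both tables. They part for miR-433, from 13.36 to 1.44, and for miR-434-5p, from 13.56 to 5.96. MiR-431, miR-433, miR-434-5p and miR-540-5p had no Ct in βTC1 in the normalized table, so their filled circles had to differ from 0.

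No call was made for the tested arms marked with an asterisk or for miR-673-5p and miR-673-3p. The groups did not overlap for miR-673-3p and rno-miR-136*, higher in αTC1-6, and for miR-431*, lower. Their unadjusted p was 0.0429, 0.0443 and 0.0451 (limma). Over all 480 tested assays, 83 were higher and 137 lower without overlap. MiR-673-5p, from the hairpin next to Meg3, overlapped between the lines, with ΔCt values of 8.81, 8.96 and 9.25 in αTC1-6 and of 9.15, 8.01 and 8.58 in βTC1. Its log2 difference was -0.43, with a 95% interval from -1.62 to 0.77 (limma, adjusted p = 0.662). The other arm of that hairpin, miR-673-3p, had ΔCt values of 6.52, 8.31 and 7.44 in αTC1-6, and in βTC1 15.68, 9.16 and 1 undetermined sample, with a log2 difference of 8.06 ± 3.09 (SE; limma, adjusted p = 0.219). One of the duplicate wells behind the βTC1 value of 15.68 was itself undetermined.

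MiR-127* had ΔCt values between 12.05 and 12.68 in αTC1-6, and in βTC1 10.30, 16.96 and 1 undetermined sample, so the groups overlapped, unlike those of miR-127 from the same hairpin. The value of 16.96 is the mean of 1 well with a Ct and 1 undetermined well. The log2 difference of miR-127* was 3.88 ± 2.80 (SE; limma, adjusted p = 0.495). MiR-136* also overlapped between the lines, at -1.39 ± 1.80 (SE; limma, adjusted p = 0.662), and the rat assay rno-miR-136* gave 3.70 ± 1.35 (SE; limma, adjusted p = 0.219). MiR-431*, the opposite arm of miR-431, had ΔCt values of -0.43, 7.40 and 9.56 in βTC1, and in αTC1-6 10.71, 13.20 and 1 undetermined sample. Its log2 difference was -9.47 ± 3.69 (SE; limma, adjusted p = 0.219).

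The 5 assays not tested were miR-540-3p, miR-665, miR-770-3p, miR-433* and rno-miR-673. MiR-665 had ΔCt values of 10.47 and 10.51 in 2 αTC1-6 samples and a blank in the other one, which had a non-normalized Ct of 28.4, and no Ct in βTC1 in the normalized table, where the non-normalized table gave 29.1, 23.9 and 29.0 cycles. MiR-540-3p had no Ct in either line at 24 h in the normalized table. MiR-770-3p, whose hairpin lies within Meg3, had a Ct in 1 βTC1 sample and in no untreated αTC1-6 sample of 24 h in the normalized table, against 2 and 1 in the non-normalized one.

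**Figure D2:**
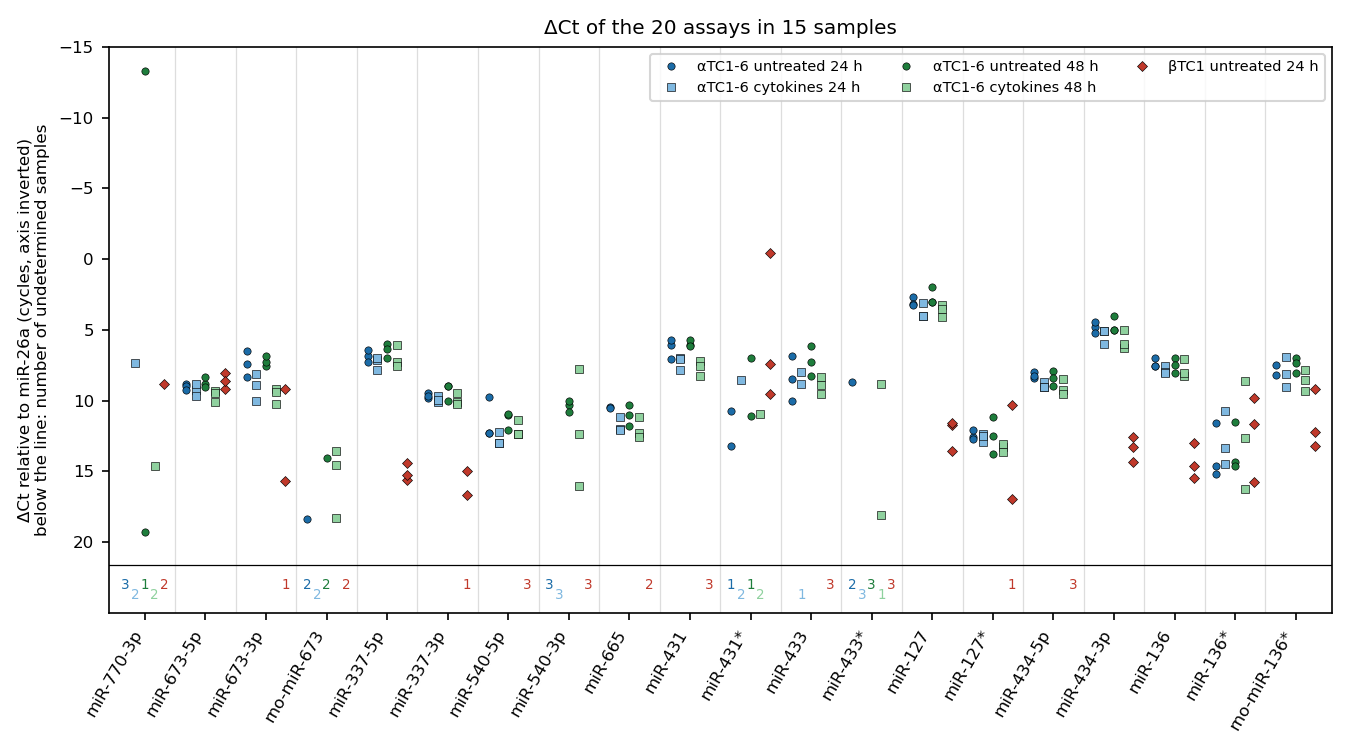
ΔCt relative to miR-26a (vertical axis in cycles, inverted so that higher levels are up) of the 20 assays in each of the 15 samples, with the number of undetermined samples of each group below the line. MiR-127 and miR-434-3p have the βTC1 samples far below all αTC1-6 samples, miR-673-5p does not, and miR-770-3p holds a value of -13.33 in 1 untreated sample of 48 h.

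The remaining miRNAs of the region, miR-493 and those of the Rian and Mirg transcripts, were represented by 53 assays, of which 41 were tested at steady state. Of these, 28 were higher in αTC1-6, 0 lower and 13 not called, against 11.9% of all tested assays called higher. The median log2 difference of the neighbours was 5.45, against -0.52 over all tested assays. Among those highest were miR-370, at 14.88 with no Ct in βTC1, and among those with a Ct in all 6 samples miR-154*, at 7.82 ± 0.81 (SE; limma, adjusted p = 0.00455). Like miR-370, the called neighbours miR-543, miR-409-5p, miR-380-3p and rno-miR-382* had a Ct in 3 of the 6 samples. Their calls rest on the Ct of 40 given to the other samples. The called miR-485, miR-329, miR-299* and miR-539 had a Ct in 4 of the 6. The 28 and the median of 5.45 take in these assays and are not used as support. All these neighbours were named after their values were seen. No test set the anti-Rtl1 miRNAs against these neighbours.

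**Figure D3:**
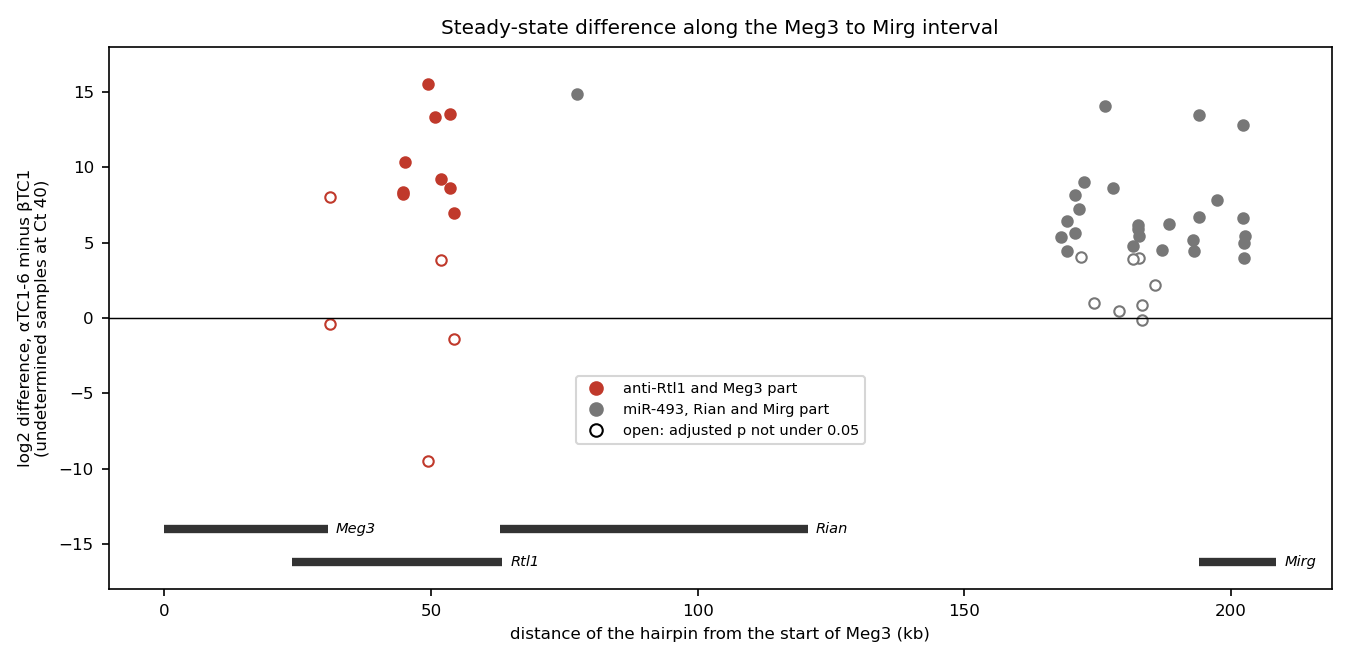
Steady-state log2 difference (vertical axis, αTC1-6 minus βTC1, undetermined samples at a Ct of 40) against the distance of each hairpin from the start of Meg3 in kb, for the tested anti-Rtl1 and Meg3 assays (red) and for the 34 tested neighbours that could be placed by gene symbol (grey), filled where the adjusted p is under 0.05; dark bars are annotated genes. Called points, all above 0, stand in the anti-Rtl1 stretch and in the stretch before and within Mirg, with miR-370, at 77.3 kb within Rian, apart from both. Filled points include assays with no Ct in βTC1, such as miR-431 and miR-370, which had to differ.

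The cytokine comparison addressed how alpha cell miRNAs respond to a mixture of inflammatory cytokines. At 24 h, 16 members were tested and none was called, against 0.225% of 445 tested assays called in either direction. None of the 16 had an unadjusted p under 0.05, against 4.49% of all tested assays. At 48 h, 19 members were tested and none was called, against 0.562% of 534 assays. Of the 19, 2 had an unadjusted p under 0.05, both below control, against 9.55% of all tested assays in that direction.

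The fitted differences were mostly below 0. At 24 h this held for 15 of the 16 tested members, against 58.9% of all tested assays. At 48 h it held for 17 of 19, against 74.7%. The 17 include miR-770-3p, at -9.81, with a Ct of 5.65 in 1 untreated sample, while its only pair with a Ct gave 4.68. Without wells of a Ct under 12, 16 of 18 were below 0 at 48 h. With undetermined wells as missing, 13 of 16 were below 0 at 24 h and 18 of 19 at 48 h. Among the 12 members with a Ct in all 6 samples at 24 h the median was -0.54, against -0.12 over all such assays. Among the 16 such members at 48 h it was -0.90, against -0.55. Replicate numbers paired treated with untreated cells, and the within-pair difference was below 0 in all 3 pairs for 9 of the 12 members at 24 h, against 26.7% of all assays so measured. At 48 h this held for 13 of the 16 members, against 57.6%. Centring each sample on its median moved the median difference of all tested assays from -0.15 to 0.09 at 24 h and from -0.51 to 0.17 at 48 h, and left 14 of the 16 tested members below 0 at 24 h and 14 of 19 at 48 h. In the fit with the pair as a block, none was called, while 6 members at 24 h and 8 at 48 h were below control with an unadjusted p under 0.05. The corresponding shares of all tested assays were 5.64% and 20.1%.

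MiR-431 had ΔCt values of 7.02, 6.07 and 5.72 without and of 7.82, 7.004 and 7.06 with cytokines at 24 h. The groups overlapped, and within pairs the log2 differences were -0.81, -0.94 and -1.34. At 48 h its values were 6.03, 5.69 and 6.11 without and 7.16, 8.26 and 7.55 with cytokines, and the groups did not overlap. The log2 difference was -1.03 ± 0.49 at 24 h (SE; limma, adjusted p = 0.963) and -1.71 ± 0.40 at 48 h (SE; limma, adjusted p = 0.310). With the pair as a block, the adjusted p of miR-431 was 0.389 at 24 h and 0.245 at 48 h (limma).

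MiR-673-3p, on card B, had the lowest adjusted p of the members at both times, with adjustment made within each card. At 24 h the lowest unadjusted p was that of miR-665 on card A, at 0.0563, against 0.0710 for miR-673-3p (limma). The ΔCt values of miR-673-3p were 6.52, 8.31 and 7.44 without and 8.12, 8.91 and 9.99 with cytokines at 24 h, which overlapped. At 48 h they were 7.52, 7.27 and 6.85 without and 10.26, 9.19 and 9.39 with cytokines, which did not. The log2 difference of miR-673-3p was -1.58 ± 0.71 at 24 h (SE; limma, adjusted p = 0.806) and -2.40 ± 0.42 at 48 h (SE; limma, adjusted p = 0.117). The other arm, miR-673-5p, was at -0.24 ± 0.37 at 24 h and -0.88 ± 0.39 at 48 h (SE; limma, adjusted p = 0.970 and 0.359).

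In the rest of the Rtl1-complementary set the 48 h values were of the same sign, with miR-136 turning under 2 other references. MiR-433 had ΔCt values of 7.26, 6.15 and 8.29 without and 8.89, 8.34 and 9.55 with cytokines, and its log2 difference was -1.70 ± 0.68 (SE; limma, adjusted p = 0.559). MiR-434-3p was at -1.10 ± 0.50 (SE; limma, adjusted p = 0.640) and miR-127 at -0.93 ± 0.45 (SE; limma, adjusted p = 0.658). For each of these 3 the treated and untreated samples did not overlap at 48 h, and the same held for miR-431, miR-673-3p and miR-673-5p, 6 of the 19 in all, against 17.2% of all tested assays. At 24 h this held for miR-434-5p and miR-665, 2 of the 16, against 7.19%. At 48 h miR-434-5p and miR-136 overlapped, at -0.68 ± 0.47 and -0.27 ± 0.49 (SE; limma, adjusted p = 0.762 and 0.858).

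At 24 h the same miRNAs lay between -0.48 and -0.68, save miR-433. MiR-127 was at -0.65, miR-434-3p at -0.61, miR-434-5p at -0.68 and miR-136 at -0.48, with adjusted p = 0.963 for each (limma). MiR-433 gave -4.21 ± 3.76 (SE; limma, adjusted p = 0.963), a value set by 1 treated sample that was undetermined in the normalized table. Without that sample, its paired control kept, the log2 difference of miR-433 was 0.033, while the other 2 pairs gave -0.33 and -1.17. In the non-normalized table, where that sample had a Ct of 26.9, miR-433 was at -1.19 ± 0.75 (SE; limma, adjusted p = 0.989).

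Among the upstream hairpins, miR-337-5p was at -0.45 at 24 h and -0.51 at 48 h, and miR-337-3p at -0.28 and -0.60. MiR-540-5p was at -1.28 and -0.69 and miR-665 at -1.24 and -0.96 (limma, adjusted p from 0.721 to 0.963 over these 8 values). Under median centring at 48 h, miR-136, miR-337-3p and miR-337-5p turned to 0.41, 0.073 and 0.16. The members tested that were above 0 were miR-136*, at 0.93 ± 1.38 at 24 h and 0.99 ± 2.16 at 48 h (SE; limma, adjusted p = 0.970 and 0.768), and at 48 h rno-miR-673, at 3.57 ± 2.59 with a Ct in 4 of the 6 samples (SE; limma, adjusted p = 0.762). In treated replicate 1 the duplicate wells of miR-136* lay apart, at Ct 35.4 and 23.8 at 24 h and 31.0 and 23.2 at 48 h. Without that replicate miR-136* was at -0.12 at 24 h and -0.95 at 48 h.

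**Figure D4:**
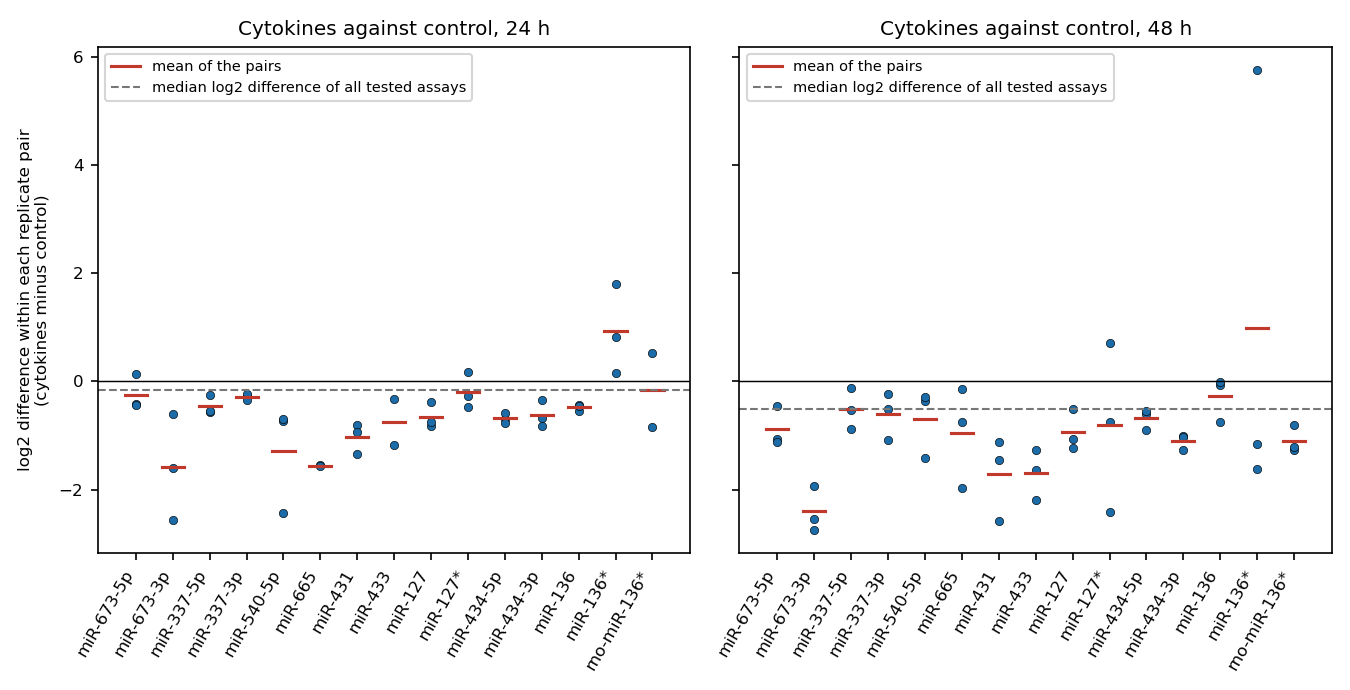
Log2 difference between cytokine-treated and untreated αTC1-6 within each replicate pair (points, 2 or 3 pairs with a Ct; red bars, their mean) at 24 h and 48 h for the members with a Ct in at least 2 pairs at both times. The dashed line is the median of all tested assays, -0.15 at 24 h and -0.51 at 48 h, and miR-673-3p, miR-431, miR-433, miR-434-3p and miR-434-5p lie below it in every pair with a Ct at both times.

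No difference between the cytokine effects of 48 h and 24 h was called among the 17 members tested, against 0.21% of 477 assays. None of the 17 had an unadjusted p under 0.05, against 3.98% of all tested, and the lowest adjusted p was 0.556, for miR-673-5p (limma). For miR-431 the effect at 48 h minus that at 24 h was -0.69, with a 95% interval from -2.09 to 0.71. For miR-673-3p it was -0.82, with an interval from -2.70 to 1.06.

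Between untreated αTC1-6 cells of 48 h and of 24 h, 1 of 17 tested members was called, against 5.93% of 489 assays called in either direction and 5.52% called higher at 48 h. This was miR-540-3p, undetermined in all 3 samples of 24 h in the normalized table and at ΔCt values of 10.32, 10.76 and 9.99 at 48 h. It passed the filter only through the 48 h samples and had to differ, and the log2 difference with undetermined wells at a Ct of 40, 11.57, is given as a value alone. One untreated sample at 24 h had a Ct of 24.99 when taken from the non-normalized values, and the log2 difference of miR-540-3p was 6.57, not called (limma, adjusted p = 0.973). Its other arm, miR-540-5p, was at 0.10 ± 0.84 (SE; limma, adjusted p = 0.985). Over the 13 members with a Ct in all 6 samples the differences ran from -0.20 to 1.19.

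MiR-127 thus ranked, from the highest mean level to the lowest, in untreated αTC1-6 of 48 h (ΔCt 2.66 ± 0.59), untreated of 24 h (3.03 ± 0.31), treated of 48 h (3.59 ± 0.43), treated of 24 h (3.69 ± 0.54) and βTC1 (12.29 ± 1.11; SD, n = 3 each). Neighbouring αTC1-6 groups in that order overlapped at each step, and βTC1 overlapped none. MiR-431 gave 5.94 ± 0.23, 6.27 ± 0.67, 7.29 ± 0.46 for treated cells of 24 h and 7.66 ± 0.56 for treated cells of 48 h (SD, n = 3 each), before βTC1 with no Ct. These too overlapped at each step.

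The fitted cytokine differences of the neighbours were also mostly below 0. This held for 37 of 44 tested at 24 h and for 44 of 50 at 48 h. The shares of all tested assays were 58.9% and 74.7%. The median of the neighbours was -0.61 at 24 h, against -0.63 over the tested members, and -0.80 at 48 h, against -0.93. Over all tested assays, 0.225% at 24 h and 0.562% at 48 h were called in either direction. Among the neighbours, 1 of 44 tested was called lower with cytokines at 24 h and none of 50 at 48 h. This was miR-380-3p, at -8.13 with a Ct in 3 of the 6 samples, so that its value follows from the Ct of 40 given to the others. It was also the 1 of 48 neighbours called between the effects of 48 h and 24 h, against 0.21% of all tested assays. Between the untreated times 3 of 48 neighbours were called higher at 48 h, against 5.52% of all tested assays. These were miR-666-5p, miR-668 and miR-679, each with a Ct in 3 of the 6 samples as for miR-540-3p. These 4 neighbours were named after their values were seen.

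Of 298 other assays with a Ct in all 12 αTC1-6 samples, the 5 whose profile over the 5 conditions was most like the mean profile of the 12 members so measured were miR-299*, miR-154*, miR-323-3p, miR-466a-3p and miR-495. Their mean absolute differences from it were 0.19, 0.23, 0.23, 0.24 and 0.31 cycles, against a median of 2.55 over the 298. All but miR-466a-3p belong to the Rian and Mirg part. The profiles share the miR-26a reference, and with undetermined βTC1 wells at a Ct of 40 the likeness is a description.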

How the data were processed

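MiRNAs were profiled in 15 samples on TaqMan rodent cards A and B. Raw Ct values, with undetermined wells marked, were deposited in one table, called non-normalized here. A second, called normalized, has the authors' ΔCt, on the log2 scale and relative to miR-26a, beside the deposited ratio 2 to the power of -ΔCt, the relative quantity. The last table holds the authors' fold changes between samples and was not used. The methods name several reference genes and limma, while ΔCt of miR-26a is 0 in every sample. Its Ct, the reference on which precision depends, was 16.975 to 18.983, and 1 to 71 wells per sample were blank.

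Cards were told apart by row position. Duplicate wells of card B were averaged, those without a Ct being set to 40. Assays with a Ct in at least 3 of 6 samples (6 of 12 for the difference of effects) were fitted with limma 3.58.1 in R 4.3.3 (lmFit, eBayes) on -ΔCt of the samples compared, two-sided, with Benjamini-Hochberg adjustment over all assays within each card at 0.05. Control assays and miR-26a were left out, which leaves 583 miRNA assays. The fit was tested on simulated data. Per the methods, replicates are independent biological ones.

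The deposited fold changes set treated against untreated cells of the same replicate number. Deviations from group means over 278 assays correlated between same-numbered treated and untreated samples at 0.28, 0.36 and 0.48 at 24 h and 0.33, 0.44 and 0.26 at 48 h, so numbers were taken as pairs there. For steady state (0.06 to 0.09) and for the untreated times (-0.04 to 0.24) they were not.

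The members and lists were chosen with earlier results of these data known. All members are named, the neighbours by counts and, by likeness, the 5 assays with the smallest mean absolute difference from the members' mean centred profile. Of the marker lists, leukocyte miR-142-3p, miR-223 and miR-150 had a Ct in all 15 samples. Red cell miR-451 had a Ct in 11 of 15, and miR-144 was not analysed here. Liver miR-122 and muscle miR-1 had none in the 24 h αTC1-6 samples, and muscle miR-133a and miR-206 had group means of ΔCt from 11.4 to 15.3. Alternatives were other references, treatments of undetermined wells, filters, adjustments and fits, the non-normalized table, and each replicate left out. Those on duplicate wells and on Ct values under 12 were chosen after seeing the data.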

Additional observations from a re-analysis of the deposited data

Results flagged for a closer look

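For 6 assays, a group without any Ct in the normalized table had Ct values in the non-normalized one, which was not the main measurement. In βTC1 the lowest such Ct was 21.1 for miR-433, 27.2 for miR-434-5p, 23.9 for miR-665 and 20.0 for rno-miR-673, each in 3 of 3 samples, of which 1 was blank in the normalized table for miR-665 and rno-miR-673. In untreated αTC1-6 of 24 h it was 24.99 for miR-540-3p and 24.1 for miR-770-3p, each in 1 of 3 samples. In cytokine-treated αTC1-6 of 24 h it was 30.9 for rno-miR-673, in 3 of 3 samples. The cause of the difference between the tables was not tested. Groups of 3 were not searched for outlying samples.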

How the results depend on the processing

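At steady state the same 9 miRNAs were called under median centring, a reference of U6 and small nucleolar RNAs, and no normalization. So they were with Ct values above 35 set to 35, adjustment over both cards, the replicate block, and both alternatives on single wells. Of the 9, miR-431, miR-433, miR-434-5p and miR-540-5p had to differ in the normalized table, so that their calls were no check. The alternatives on single wells could not alter the values of the 9, each with 1 well and no Ct under 12. With undetermined wells as missing 5 members were called, and with a Ct required in every sample 4, in both cases because fewer could be tested (11 and 6). Leaving out 1 replicate gave 4 to 10. Without any 1 of the αTC1-6 samples it was 4 (miR-127, miR-136, miR-337-5p and miR-434-3p), since miR-431, miR-433, miR-434-5p and miR-540-5p were then below the filter and miR-337-3p had an adjusted p of 0.0520 to 0.0537 (limma). With the non-normalized table it was 7, and with no filter 10 (adding miR-665). With 1 fit over all samples it was 11 (adding miR-673-3p and rno-miR-136*), and with the 48 h controls 11 (adding miR-540-3p and miR-665). In the normalized table miR-665 and miR-540-3p had no Ct in βTC1, so their added calls also had to differ and were no check. With the non-normalized table miR-665 was at -1.03, not called (limma, adjusted p = 0.755). MiR-673-5p turned to 0.40 with the non-normalized table. There both wells of miR-127*, miR-136*, miR-673-3p and miR-673-5p, the members in duplicate, hold the same value in each sample. The normalized table gives each well its own. For miR-673-5p in βTC1 replicate 1 these were Ct 28.26 and 26.80, against 28.26 in both wells of the non-normalized table.

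Between the untreated times the 1 call became 0 with the non-normalized table, with undetermined wells as missing and with a Ct in every sample, and 0 to 1 with 1 replicate left out, 0 without any 1 of the 48 h samples, where miR-540-3p could not be tested. No member was called in the 2 cytokine comparisons or their difference under any alternative. With the replicate block, 0 of 443 assays at 24 h and 0 of 532 at 48 h were called, while 25 and 107 were below control at an unadjusted p under 0.05. The block, and with it the pairing, changed no call of a member in any comparison, leaving 9 at steady state and 1 between the untreated times.

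Signs turned under cytokines at 24 h for miR-136* (-0.26 with the non-normalized table), miR-127* (0.027 with median centring), and miR-433 and miR-431* (0.033 and 3.39 with undetermined wells as missing). With 1 replicate left out, values at 24 h ran from -6.54 to 0.033 for miR-433, from -0.12 to 2.03 for miR-136* and from -0.75 to 0.31 for rno-miR-136*. At 48 h signs turned for rno-miR-673 (-1.42 with undetermined wells as missing), miR-136* (-0.92 with the non-normalized table), miR-337-3p (0.073) and miR-337-5p (0.16, both with median centring) and miR-136 (0.41 with median centring, 0.061 relative to U6 and small nucleolar RNAs). With 1 replicate left out, values at 48 h ran from -0.95 to 2.86 for miR-136* and from -3.82 to 0.30 for miR-540-3p. Counting error cannot be given for Ct values, and 3 replicates limit what the cytokine fits could call.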

Other observations

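A few wells stood at early cycles. MiR-770-3p had a Ct of 5.65 in 1 untreated αTC1-6 sample of 48 h, where the other replicates were undetermined or at 37.2 cycles. MiR-431* had a Ct of 17.95 in 1 βTC1 sample, against 26.1 and 27.1 in the others. The assay rno-miR-673 had Ct values of 33.8, 20.7 and 20.0 in βTC1 in the non-normalized table, with no Ct in the normalized one.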
